A study of Mus musculus with 4 samples.

Results

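The cells described here are 513 CD45+ cells from preparations of mouse spinal cord that carried transcripts of the primary granule genes Elane, Mpo, Prtn3, Ctsg and Ms4a3. The 4 libraries of the study held 31660 cell barcodes, of which 28346 passed filters of 600 genes or more and no more than 10% mitochondrial UMIs. The cells were chosen from the filtered barcodes of the standard sham and 14 dpi libraries, as those with at least 2 UMIs of each of at least 3 of the 5 genes and no UMI of Cd3e or Cd79a, which mark T and B cells. A UMI (unique molecular identifier) tags 1 captured RNA molecule, so that its amplified copies are counted once. The rule found 235 cells in the standard sham library, 4.10% of its filtered barcodes (exact Clopper-Pearson interval 3.60 to 4.64%), and 278 cells in the 14 dpi library, 2.56% (2.27 to 2.87%). They are called primary granule cells here, because 108 (46.0%) and 147 (52.9%) of them also carried a set of monocyte genes, so that the name of the promyelocyte, a stage of the neutrophil lineage, would not cover them all.

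Both libraries were made from CD45+ cells sorted from the spinal cord of C57BL/6 mice, which were 3 months old at surgery. The standard sham mice had a laminectomy without contusion, and their cells were dissociated by the standard protocol. The 14 dpi mice had a thoracic contusion 14 days before the cells were taken, and their cells were dissociated with actinomycin D (ActD), a blocker of transcription, as the text of the study has it, since the labels do not name the dissociation of that library. Mice of both sexes were used, cells of both sexes were found in each library, and there was 1 library per condition, which leaves differences between libraries without a measure of the spread between animals. Injury, dissociation, the software version and the mice differed together between these libraries and cannot be told apart. The sex of the primary granule cells also set the libraries apart, mostly female in sham and mostly male at 14 dpi. The standard sham library held 6827 barcodes with 60412094 UMIs, and the 14 dpi library 11631 barcodes with 129935880 UMIs. They shared 23 barcodes, and no barcode was that of a primary granule cell in both. Intervals in this text are exact 95% intervals that cover counting error only. Ptprc, which encodes CD45, had at least 1 UMI in 92.3% of the primary granule cells of the sham library and 95.7% of those at 14 dpi.

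Neutrophils form in the bone marrow in steps that can be read from the order in which their granule genes are used. Dividing progenitors and promyelocytes make the primary (azurophil) granules with myeloperoxidase and the serine proteases elastase, proteinase 3 and cathepsin G. Myelocytes and metamyelocytes then make the secondary granules with lactoferrin and cathelicidin, and cells that have left the cycle make gelatinase and the surface receptors of the circulating neutrophil. Monocytes and basophils share the early part of this pathway, and their progenitors also carry transcripts of Mpo or of the granule proteases. Mature neutrophils enter injured tissue from the blood, and the dividing stages are best known from the bone marrow.

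The genes of the rule were as follows. Elane (neutrophil elastase) lies on chr10:79886247-79888215 on the plus strand and Prtn3 (proteinase 3) upstream of it on the same strand, with 3072 bases between the genes in the GENCODE M21 annotation of GRCm38. Mpo (myeloperoxidase) lies on chr11:87793581-87804413 and Ctsg (cathepsin G) on the minus strand of chr14:56099881-56102574. Ms4a3, a membrane protein gene of granulocyte and monocyte progenitors, lies on the minus strand of chr19:11629496-11640851. The promoters are shown because these 4 are among the 5 genes that chose the cells. Each is the 250 bases before the RefSeq start of the gene (GRCm38.p6), on the strand of the gene, in lower case with the letters GGAAGT in capitals, a core that ETS factors such as PU.1 can bind.
Elane: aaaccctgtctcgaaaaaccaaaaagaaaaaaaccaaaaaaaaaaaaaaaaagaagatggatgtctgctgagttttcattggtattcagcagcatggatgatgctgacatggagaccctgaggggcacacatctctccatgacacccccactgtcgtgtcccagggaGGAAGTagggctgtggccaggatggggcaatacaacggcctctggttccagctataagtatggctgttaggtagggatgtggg
Prtn3: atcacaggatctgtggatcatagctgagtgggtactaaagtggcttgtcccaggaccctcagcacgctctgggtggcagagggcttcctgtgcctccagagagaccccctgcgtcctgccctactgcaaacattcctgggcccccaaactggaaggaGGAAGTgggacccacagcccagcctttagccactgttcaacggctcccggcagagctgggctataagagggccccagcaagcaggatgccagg
Mpo: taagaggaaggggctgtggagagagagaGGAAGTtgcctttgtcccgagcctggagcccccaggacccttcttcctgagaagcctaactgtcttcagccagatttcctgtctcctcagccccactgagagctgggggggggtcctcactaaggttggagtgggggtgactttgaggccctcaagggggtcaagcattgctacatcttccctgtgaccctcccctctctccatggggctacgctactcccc
Ctsg: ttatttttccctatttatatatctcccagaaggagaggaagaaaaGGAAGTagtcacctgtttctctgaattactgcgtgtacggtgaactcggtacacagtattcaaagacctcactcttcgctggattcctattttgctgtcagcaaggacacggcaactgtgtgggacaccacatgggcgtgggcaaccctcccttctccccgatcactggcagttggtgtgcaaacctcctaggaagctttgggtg
The windows shown are chr10:79886062-79886311 for Elane, chr10:79879417-79879666 for Prtn3, chr11:87793534-87793783 for Mpo and chr14:56102575-56102824 for Ctsg. The letters GGAAGT, searched on both strands, were found in all 5 promoters of the rule, starting 83, 93, 222, 205 and 55 bases before the start of Elane, Prtn3, Mpo, Ctsg and Ms4a3. They were found in 1 of the 5 promoters of the secondary granule genes Camp, Ngp, Ltf, Lcn2 and Chil3, and in 6485 of all 32851 promoters of that length (19.7%). The motif was picked after the sequences had been read, and a match is a run of letters, not a measured binding site.

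Levels of the 5 genes spread widely among the cells. In the standard sham library the cells held from 7 to 3298 UMIs of the 5 genes together, with a median of 342, and at 14 dpi from 8 to 3192, with a median of 168.5. Prtn3 was the most widely detected, with at least 2 UMIs in 97.4% and 97.8% of the cells, and Ms4a3 the least, with 69.8% and 65.8%. The median cell held 66 UMIs of Elane, 66 of Mpo, 130 of Prtn3, 48 of Ctsg and 10 of Ms4a3 in sham. At 14 dpi it held 32, 16, 66, 20 and 6 UMIs of the same genes. The cells were rich in RNA, with a median of 36419 UMIs and 5211 genes in sham and 29157.5 UMIs and 4836.5 genes at 14 dpi. The mature neutrophils of the same libraries held 6054 and 5562.5 UMIs. Scaled to CPM, the UMIs of a gene per 1000000 UMIs, the median over the cells was 10682 CPM of the 5 genes together in sham and 6707 CPM at 14 dpi. Levels are given from here on as CPM of the summed cells of a population. Shares of cells with a UMI of Elane or Cd34 and of cycling cells are given after each cell was thinned at random to 1000 UMIs, and the lineage, marker and sex shares from all UMIs. Elane reached 66.7% and 62.1% of the thinned cells, against 1.71% and 0.878% of the thinned microglia (median UMIs 8001 and 11707), which should lack it. Both sides of this pair were set by selection, since the rule used Elane and the microglia gate left out cells with 2 UMIs of it. Before thinning these shares were 89.4% and 92.1% against 11.4% and 9.03%.

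The rule cut through a continuous range. Cells with 2 of the 5 genes at 2 UMIs, just outside it, numbered 47 in sham and 121 at 14 dpi, with a median of 11 and 9 UMIs of the 5 genes. Cells with 3 of the genes, just inside, numbered 60 and 92, with medians of 35 and 33 UMIs. All 5 genes were present in 138 sham cells, with a median of 1107 UMIs of the 5 genes, and in 135 cells at 14 dpi, with 518. Of the cells just outside, 29.8% at 14 dpi and 6.38% in sham belonged to the secondary granule cells, a comparison population. A further 31 and 19 barcodes met the gene counts but held a UMI of Cd3e or Cd79a and were left out.

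For comparison, 2 other populations of the neutrophil lineage were taken from the same libraries. Mature neutrophils, with at least 3 of Cxcr2, Csf3r, Retnlg, Mmp9 and Il1r2, numbered 277 in sham and 934 at 14 dpi. Secondary granule cells, with at least 3 of Camp, Ngp, Ltf, Lcn2 and Chil3 and outside both other populations, numbered 33 and 280. Both gates required at least 20 UMIs of S100a8 plus S100a9 and no UMI of Cd3e, Cd79a or P2ry12, and the mature gate required fewer than 2 UMIs of every gene of the rule. The genes of a gate are a description of the cells it took.

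Granule stage was read from the share of the UMIs of a cell that came from Ltf, Camp, Ngp, Lcn2 and Chil3, genes that the rule did not use. Most primary granule cells held almost none. The share was under 0.1% in 161 of the 235 sham cells (68.5%) and 181 of the 278 cells at 14 dpi (65.1%), between 0.1 and 1% in 31 (13.2%) and 29 (10.4%), and over 1% in 43 (18.3%, 13.6 to 23.8%) and 68 (24.5%, 19.5 to 30.0%). The median share was 0.0168% and 0.0257%, and the highest 17.9% and 20.3%. In the mature neutrophils the median was 1.85% in sham and 1.0% at 14 dpi, and in the secondary granule cells 7.81% and 12.8%. The ranges are parts of a continuous value, and 12 sham cells and 6 cells at 14 dpi lay within 20% of a limit.

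Genes that were not used for the ranges differed along them. The ranges also differed in lineage, since the low range of sham held 88 cells of the monocyte side, 46 with no gate, 14 of the basophil side and 9 of the neutrophil side by the gates described next, and its high range 34 of the neutrophil side. Mpo stood at 4518, 3332 and 2306 CPM in the low, middle and high range of the sham library, and at 2688, 1258 and 781 CPM at 14 dpi. Ctsg followed the same order, with 3147, 2255 and 1026 CPM in sham and 2416, 1247 and 233 CPM at 14 dpi. Elane did not, with 6180.0, 9491 and 8289 CPM in sham and 4374, 4954 and 4167 CPM at 14 dpi. These 3 genes chose the cells and are given as a description. Cebpe, a transcription factor that secondary granule genes need, stood at 85.5, 224 and 575 CPM in sham and at 68.8, 142 and 709 CPM at 14 dpi. Fcnb, which encodes the lectin ficolin B of immature granulocytes, stood at 53.0, 452 and 1631 CPM in sham and 56.0, 504 and 2193 CPM at 14 dpi. Both were lowest in the low range and highest in the high range of each library. Cd34, a stem and progenitor surface protein, ran the other way from 123 CPM in the low range to 6.44 CPM in the high range of sham and from 90.5 to 12.1 CPM at 14 dpi. Ly6g, the surface marker of mature mouse neutrophils, reached 52.7 CPM in the high range of sham and 47.8 CPM at 14 dpi, against 766 and 748 CPM in the mature neutrophils. Camp, unlike these, was used for the ranges, so its 21.6 and 47.9 CPM in the low range were limited by the range itself. The microglia of the same libraries, which were not chosen by Camp, held 553 and 623 CPM.

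**Figure D1:**
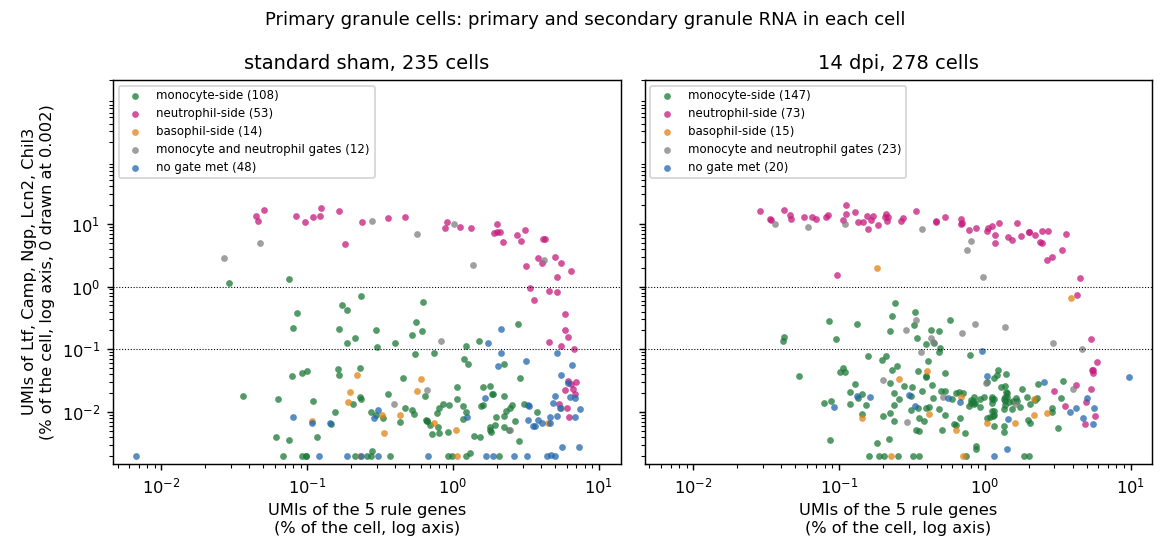
Each point is 1 primary granule cell of the standard sham (left) or 14 dpi library (right), with the UMIs of the 5 genes of the rule on the x axis and of 5 secondary granule genes on the y axis, both as percent of the UMIs of the cell on log axes with 0 drawn at 0.002. Colours give the lineage gates, and dotted lines the limits of 0.1 and 1%. Neutrophil-side cells run from the lower right to the upper left, while monocyte-side cells stay mostly under 0.1%.

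Lineage was described with 3 gates that were chosen after the data had been seen. The monocyte-side gate asked for at least 2 UMIs of each of at least 3 of Irf8, F13a1, Ms4a6c, Ccr2 and Ly86, the neutrophil-side gate for the same of Cebpe, Fcnb, Camp, Ngp and Ltf, and the basophil-side gate for at least 2 of Prss34, Mcpt8, Cpa3, Ms4a2 and Fcer1a. Monocyte-side cells were the most frequent, with 108 (46.0%) in sham and 147 (52.9%) at 14 dpi. Neutrophil-side cells numbered 53 (22.6%) and 73 (26.3%), and basophil-side cells 14 (5.96%) and 15 (5.40%). Another 12 (5.11%) and 23 (8.27%) met both the monocyte and the neutrophil gate, and 48 (20.4%) and 20 (7.19%) met no gate. The share of cells with no gate was 20.4% (15.5 to 26.2%) in sham and 7.19% (4.45 to 10.9%) at 14 dpi. With 1 UMI in place of 2, the monocyte-side counts were 84 and 105, because more cells met a second gate. Cells of both gates then numbered 46 and 74, and cells with no gate 26 and 10. With 4 UMIs, cells of both gates numbered 5 and 5, and cells with no gate 62 and 37.

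Genes outside the gates differed between the monocyte and the neutrophil side, in both directions. Klf4, a transcription factor of the monocyte lineage, stood at 222 CPM in monocyte-side and 24.0 CPM in neutrophil-side cells of sham, and at 213 and 6.20 CPM at 14 dpi. Gfi1, a repressor of monocyte genes in granulocytes, stood at 6.11 against 51.4 CPM in sham and 5.90 against 38.6 CPM at 14 dpi. Ctsc, the protease that activates the granule proteases, was higher on the monocyte side, with 254 against 20.6 CPM and 269 against 10.5 CPM, but microglia held more of it, at 309 and 440.2 CPM. Klf4 in microglia was at 867 CPM in sham and 15.9 CPM at 14 dpi. Cd63, a granule membrane protein, was lower there, with 44.7 against 1138 CPM in sham and 140.2 against 779 CPM at 14 dpi. Elane was lower on the monocyte side as well, at 2444 against 13857 CPM in sham and 2215 against 7950 CPM at 14 dpi. Those levels of Elane describe the rule. Mpo was closer between the sides, at 2829 against 4330.2 CPM and 1797 against 2184 CPM.

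Microglia also express some genes of the monocyte gate, and their markers were found in the cells. At least 3 of 5 microglia markers, among them P2ry12, Cx3cr1 and Tmem119, had 2 or more UMIs in 27.8% of the monocyte-side and 5.66% of the neutrophil-side cells of sham, and in 38.1% and 17.8% at 14 dpi. Irf8, a transcription factor of monocytes and microglia, stood at 637 CPM in monocyte-side cells and 471 CPM in microglia of sham, and at 547 and 456 CPM at 14 dpi. In the 78 and 91 monocyte-side cells without the microglia markers, Irf8 was at 655 and 570.1 CPM. F13a1, which encodes the A subunit of coagulation factor XIII in monocytes, was at 781 CPM in the monocyte-side cells of sham and 775 CPM in those without the markers, against 26.0 CPM in microglia. At 14 dpi F13a1 was at 744, 818 and 29.2 CPM in the same order. Both genes were used for the gate, so their levels on the monocyte side are a description. Csf1r, the receptor for M-CSF, was lower without them, at 105 against 177 CPM in sham and 143 against 233 CPM at 14 dpi, and microglia held 2507 and 1567 CPM.

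The neutrophil-side cells are described along the same ranges, with no test, since the 5 genes chose them. Of the 5 gate genes, 3 also set the ranges, so the spread of these cells over the ranges is in part fixed by the gate. In sham, 9, 10 and 34 neutrophil-side cells lay in the low, middle and high range, and the median share of UMIs from the 5 genes was 6.25, 5.35 and 1.62%. At 14 dpi, 11 cells in the low range had a median of 5.37% and 60 in the high range one of 0.401%, with 2 cells between them. Within the high range the share ran from 0.0443 to 6.44% in sham and from 0.0287 to 4.50% at 14 dpi. Both are parts of the same total, so that a higher share of either leaves less for the other. S100a8, a calcium-binding protein that becomes one of the most abundant in neutrophils, was already at 13331 CPM in the low range of sham and reached 98018 CPM in the high range, and at 14 dpi it was at 9558 and 112500 CPM. Within these cells Elane stood at 23117, 20789.7 and 9512 CPM along the ranges of sham and at 17849 and 4565 CPM in the low and high range at 14 dpi, unlike its levels over all primary granule cells. Cebpe, a gene of the gate, stood at 393, 528 and 682 CPM in sham and 342 and 761 CPM at 14 dpi, a smaller difference than over all cells. Nkg7, a granule membrane gene best known from cytotoxic lymphocytes, went from 1707 to 590.0 CPM in sham and from 1384 to 294 CPM at 14 dpi. Npm1, a nucleolar protein of ribosome assembly, went from 1137 to 287 CPM and from 1761 to 223 CPM. Myb, a progenitor transcription factor, went from 226 to 51.6 CPM and from 437 to 54.7 CPM. Mki67, a gene of dividing cells, did not follow them, with 138 and 448 CPM in sham and 252 and 681 CPM at 14 dpi.

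The basophil-side cells held nearly all transcripts of the basophil proteases. Prss34 and Mcpt8 were genes of that gate, so their levels inside and outside it are a description. Prss34 and Mcpt8, basophil serine proteases, stood at 13033 and 7913 CPM in the 14 cells of sham and at 9298 and 6826 CPM in the 15 cells at 14 dpi. Outside the gate Prss34 was at most 3.50 CPM in any other group of primary granule cells in sham and 0.681 CPM at 14 dpi. Prss34 UMIs were held by few cells, with the 5 highest cells carrying 92.3% of them in sham and 75.2% at 14 dpi. Gata2, a transcription factor of basophils, mast cells and stem cells that the gate did not use, stood at 486 CPM in basophil-side cells of sham and 199 CPM at 14 dpi, and at 2.82 and 1.59 CPM on the monocyte side. No Gata2 UMI was found on the neutrophil side in either library. The basophil-side cells held 3018 and 4186 CPM of Elane and 3779 and 3359 CPM of Mpo, which describe the rule that chose them. Kit, the receptor for stem cell factor, was at 61.7 and 40.2 CPM in them, and Myb at 316 and 541 CPM. Mcpt8 lies 14607 bases from Ctsg, in the cluster of granule protease genes on mouse chromosome 14. By the fixed list of 9 basophil and mast cell genes, 25 primary granule cells in sham (10.6%) and 25 at 14 dpi (8.99%) held 2 or more UMIs of at least 2 genes.

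The cells that met no gate had, of the gates taken whole, the highest levels of Mpo, Ctsg, Nkg7 and Gfi1. They held the most Mpo, with 7047 CPM in sham and 4931 CPM at 14 dpi, and the most Ctsg, with 5039 and 4567 CPM. Mpo and Ctsg are genes of the rule, so these levels are a description. Nkg7 was at 1051 and 1053 CPM, and Gfi1 at 68.4 and 79.5 CPM, each the highest of the gates. Neutrophil-side cells of the low range held more Mpo, Ctsg and Nkg7 than these cells in both libraries. Cd34 was at 110.4 and 163 CPM against 3.92 and 4.77 CPM on the neutrophil side. Cd34 is also a microglia transcript in these libraries, with 187 and 158 CPM. The microglia markers were found in 6.25% and 15% of the cells with no gate, and Cd34 was at 117 and 176 CPM in the 45 and 17 of them without the markers. Muc13, a mucin of early progenitors, was at 34.5 and 73.5 CPM there and under 0.1 CPM in microglia. Lyz2, the myeloid lysozyme gene, was low, at 147 and 235 CPM against 5033 and 3725 CPM on the monocyte side. All but 2 of these cells lay in the low range of secondary granule genes. Vcam1, an adhesion molecule, was at 129 CPM in cells with no gate and 188 CPM on the neutrophil side of sham, at 13.9 and 45.3 CPM at 14 dpi, and under 1 CPM on the monocyte side in both libraries. Microglia held 37.6 and 13.2 CPM of it.

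**Figure D2:**
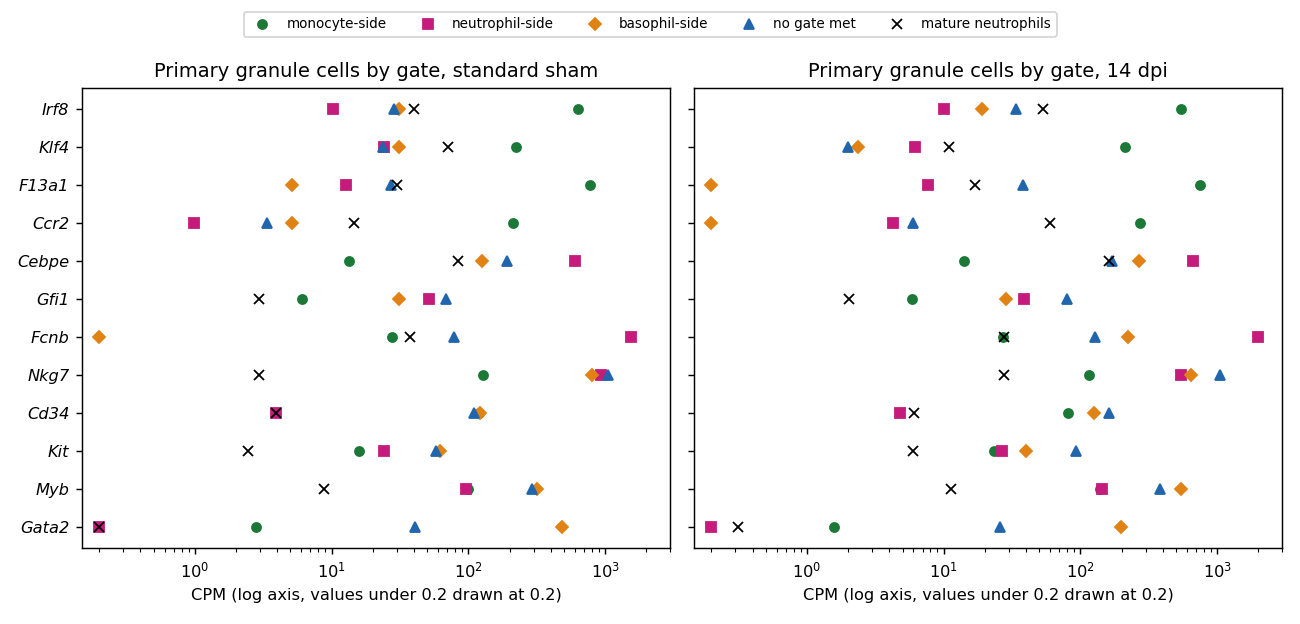
CPM of 12 lineage genes (log axis) in the primary granule cells of the monocyte, neutrophil and basophil side, in those with no gate and in the mature neutrophils of the standard sham (left) and 14 dpi library (right), 1 point per summed population, with values under 0.2 drawn at 0.2. Irf8, F13a1, Ccr2, Cebpe and Fcnb were used for the gates and the other genes were not. The basophil-side points lead for Gata2, and the points of cells with no gate lead for Gfi1 in both libraries.

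Cycling was measured as the share of thinned cells with UMIs of at least 2 of Mki67, Top2a, Cdk1, Ccnb2, Birc5, Ube2c and Rrm2. Among the primary granule cells it was 43.6% (37.1 to 50.2%) in sham and 45.5% (39.5 to 51.6%) at 14 dpi. It was 30.3% (15.6 to 48.7%) and 35.4% (29.8 to 41.3%) among the secondary granule cells. Mature neutrophils stood at 1.44% (0.395 to 3.66%) and 0.428% (0.117 to 1.09%), and microglia, the background, at 1.33% (0.978 to 1.78%) and 1.55% (1.25 to 1.90%). The intervals of the primary granule cells lay far above those of the mature neutrophils in both libraries and overlapped those of the secondary granule cells. Without thinning the shares of primary granule cells were 93.2% and 96.8%, and 1 cell per library was too shallow to be thinned. By lineage, the shares were 46.3% (36.6 to 56.2%) and 46.9% (38.7 to 55.3%) on the monocyte side, and 54.7% (40.4 to 68.4%) and 50.7% (38.7 to 62.6%) on the neutrophil side. The cells with no gate had the lowest values, 23.4% (12.3 to 38.0%) and 15.8% (3.38 to 39.6%), and their intervals lay below that of the neutrophil side in sham and overlapped it slightly at 14 dpi. Along the ranges of secondary granule genes, the share was 38.8, 48.4 and 58.1% in sham and 41.7, 65.5 and 47.1% at 14 dpi, with overlapping intervals.

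**Figure D3:**
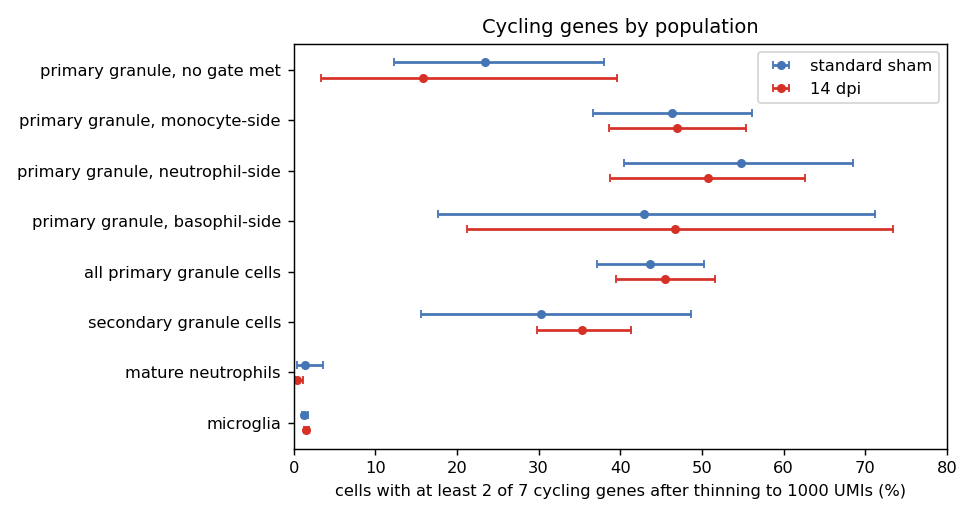
Percent of cells with UMIs of at least 2 of 7 cycling genes after thinning to 1000 UMIs (x axis) for the primary granule cells by gate and the comparison populations (y axis) of the standard sham (blue) and 14 dpi (red) libraries. Bars are exact 95% intervals of counting error. Primary granule cells sit at 43.6 and 45.5%, mature neutrophils at 1.44 and 0.428%.

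Compared with the mature neutrophils of the same library, the primary granule cells carried more transcripts of growth and division and fewer of later granules and inflammation. The scale was set by a general shift, since the median log2 ratio over all genes compared (those with at least 20 UMIs in the pair) was 1.17 in sham and 1.02 at 14 dpi. Of 10322 genes in sham, 53.3% were at least 2-fold higher and 12.1% at least 2-fold lower in the primary granule cells, and of 10746 genes at 14 dpi, 50.6% and 13.1%. With TMM scaling the medians of all genes were 0.19 and 0.07, with a shift of -0.97 in every ratio of sham and -0.95 in every ratio at 14 dpi. There is 1 library per condition, so ratios carry an interval of counting error and no test.

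All 20 S phase genes and all 20 genes of G2 and M phase were at least 2-fold higher in both libraries, with median log2 ratios of 4.81 and 5.12 for S phase and 3.73 and 4.36 for G2 and M phase. Mcm5, a subunit of the replicative helicase, stood at 179 CPM in the primary granule cells and 2.44 CPM in the mature neutrophils of sham, a log2 ratio of 6.06 (4.97 to 7.82). At 14 dpi it stood at 148 and 4.53 CPM, a log2 ratio of 5.01 (4.50 to 5.62). Top2a, the topoisomerase of dividing cells, had log2 ratios of 3.40 (3.08 to 3.76) and 4.70 (4.47 to 4.94). All 15 ribosome biogenesis genes were at least 2-fold higher in each library, with medians of 4.03 and 3.91. Npm1 stood at 1572 against 66.4 CPM in sham and 1326 against 107 CPM at 14 dpi. Of the 15 genes of protein folding in the endoplasmic reticulum, through which granule proteins pass, 15 in sham and 14 at 14 dpi were at least 2-fold higher, with medians of 2.72 and 2.48. Calr, the chaperone calreticulin, stood at 1169 against 96.7 CPM in sham and 1053 against 113 CPM at 14 dpi. Of 10 replication histone genes, 9 were at least 2-fold higher in each library. Hist1h2bc was the exception, with log2 ratios of -0.29 and -1.07. Histone genes have near-identical copies, so counts of single members are uncertain.

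Transcription factors of granulocytes were found on both sides. Of the 16 listed, 11 in sham and 10 at 14 dpi were at least 2-fold higher, and 2 and 3 at least 2-fold lower, beside 53.3% and 50.6% of all genes higher and 12.1% and 13.1% lower. Myb had log2 ratios of 3.96 (3.33 to 4.76) in sham and 3.90 (3.56 to 4.27) at 14 dpi, and Gfi1 of 3.2 (2.17 to 4.77) and 3.29 (2.53 to 4.28). Cebpa, the factor that starts granulocyte and monocyte fate, had 2.10 (1.64 to 2.65) and 1.76 (1.46 to 2.08). Cebpb, a factor of mature and activated myeloid cells, was lower, at -2.01 (-2.07 to -1.95) and -1.24 (-1.30 to -1.17), and so was Bcl6, a repressor found in late neutrophils, at -2.13 (-2.78 to -1.47) and -2.63 (-3.05 to -2.25). Cebpd, a related factor, was at -0.04 (-0.20 to 0.13) in sham and -1.24 (-1.34 to -1.15) at 14 dpi. Of the 13 stem and early progenitor genes, 11 could be compared, and 10 in sham and 9 at 14 dpi were at least 2-fold higher. Sox4, a progenitor transcription factor, had 3.33 (2.78 to 4.01) and 4.93 (4.11 to 6.07). Ly6a, which encodes Sca-1, was not higher, at -0.51 (-1.72 to 1.03) and -2.21 (-2.53 to -1.91). Among thinned cells, Cd34 reached 7.69% and 5.42% of the primary granule cells and 17.8% and 14.0% of the microglia, which also express it in these libraries. Before thinning the shares were 48.9% and 47.1% against 68.6% and 69.9%. Summed over the 13 stem and early progenitor genes, microglia held 626 and 339 CPM, against 381 and 236 CPM in the primary granule cells. At least 2 of these genes at 2 UMIs were found in 40.4% and 23.7% of the microglia and 36.2% and 28.4% of the primary granule cells.

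Granule genes differed by granule type. Of the 12 other primary granule and early granulocyte genes, which the rule did not use, 8 in sham and 5 at 14 dpi were at least 2-fold higher and 1 in each was lower, with medians of 1.5 and 0.90. Of all genes, 53.3% and 50.6% were at least 2-fold higher and 12.1% and 13.1% lower. The median at 14 dpi was close to that of all genes and was -0.05 with TMM scaling, so the list as a whole does not stand above the general shift there. The sham median lay near the 1.17 of all genes too, and was 0.52 against 0.19 with TMM scaling. Prss57, a serine protease of azurophil granules, stood at 166 against 7.81 CPM in sham and 111 against 5.15 CPM at 14 dpi. Nkg7 stood at 515 against 2.93 CPM and 318 against 27.8 CPM. Lyz2, in contrast, was lower, with log2 ratios of -1.43 (-1.46 to -1.41) and -1.09 (-1.11 to -1.07). Of the 12 secondary granule genes, 10 and 9 were at least 2-fold lower and none higher. Camp, the cathelicidin gene, had log2 ratios of -1.15 (-1.17 to -1.13) and -0.59 (-0.61 to -0.58), and Ltf, lactoferrin, of -3.80 (-3.86 to -3.75) and -2.77 (-2.81 to -2.74). Mmp8, the neutrophil collagenase, had -6.38 (-6.57 to -6.21) and -6.23 (-6.42 to -6.06). All 5 tertiary granule genes and all 14 mature neutrophil genes were at least 2-fold lower in both libraries, with medians of -5.22 and -4.76 and of -4.39 and -4.58. Several of these genes chose the mature neutrophils. Ly6g, which did not, had -6.15 (-6.47 to -5.85) and -5.96 (-6.27 to -5.68).

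Receptors and response genes were mixed. The shares to read them against are those of all genes, 53.3% and 50.6% higher and 12.1% and 13.1% lower. Of 11 cytokine receptor genes, 3 were at least 2-fold higher and 2 lower in sham, and 3 and 5 at 14 dpi. Kit had log2 ratios of 3.33 (2.23 to 5.10) and 2.25 (1.77 to 2.80), and Il3ra, a subunit of the interleukin 3 receptor, of 3.01 (2.30 to 3.95) and 2.20 (1.79 to 2.66). Csf3r, the G-CSF receptor and a gene of the mature gate, was lower. Of 10 genes of marrow retention and egress, 4 were at least 2-fold higher and 4 lower in sham, and 2 and 3 at 14 dpi. Cxcr4, the receptor that holds cells in the marrow, had -1.30 (-1.48 to -1.11) in sham and -0.12 (-0.27 to 0.03) at 14 dpi, and Ccr1, a receptor of inflammatory chemokines, -3.63 (-3.86 to -3.41) and -4.61 (-4.87 to -4.36). Of the inflammatory genes, 6 of 12 in sham and 9 of 11 at 14 dpi were at least 2-fold lower. Il1b, interleukin 1 beta, stood at 74.2 against 1467 CPM in sham and 9.67 against 1181 CPM at 14 dpi. Of 15 interferon response genes, 10 in sham and 13 at 14 dpi were at least 2-fold lower, with medians of -1.79 and -2.14. Isg15, a ubiquitin-like interferon-induced protein, had -3.58 (-3.89 to -3.29) and -3.71 (-3.90 to -3.53). Of 20 immediate early genes, 6 were at least 2-fold lower and 1 higher in sham, and 16 and 0 at 14 dpi. Of 6 genes of the NADPH oxidase, the enzyme of the oxidative burst, 4 were at least 2-fold lower in each library.

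**Figure D4:**
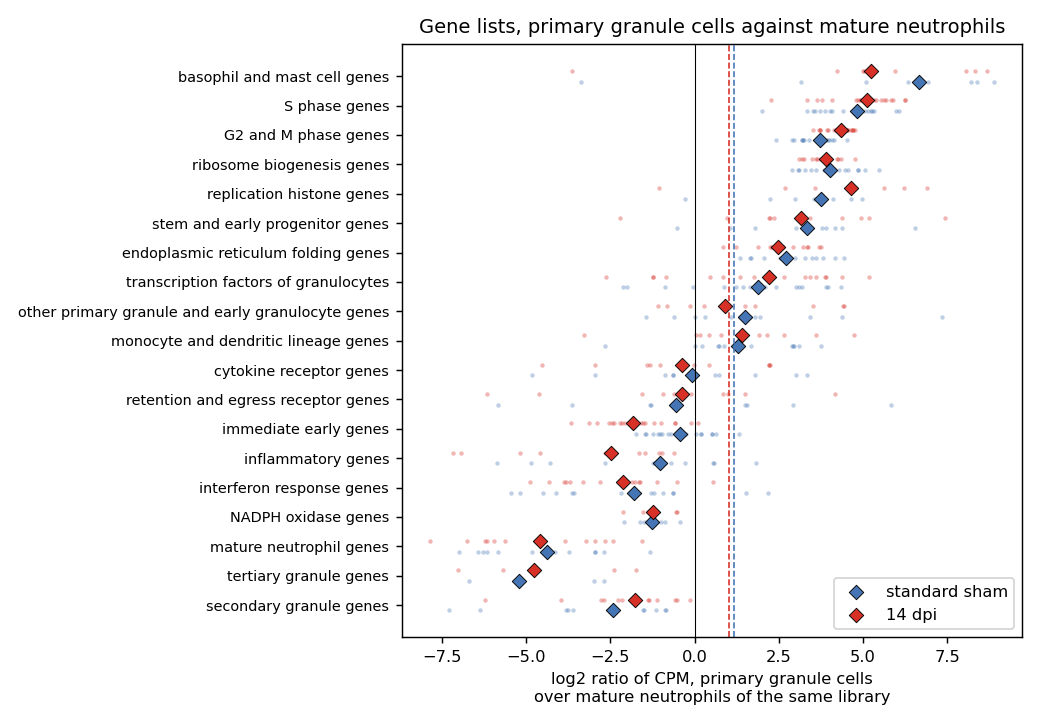
Log2 ratio of CPM in primary granule cells over mature neutrophils (x axis) for 19 gene lists (y axis) in the standard sham (blue) and 14 dpi (red) libraries. Diamonds are list medians, dots are genes, and dashed lines are the medians of all genes, 1.17 and 1.02. S phase genes lie at medians of 4.81 and 5.12, and mature neutrophil genes at -4.39 and -4.58.

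By the fixed naming rule, the largest ratios outside the 5 genes of the rule included basophil proteases in both libraries. In sham, Prss34 stood at 581 against 0.977 CPM, a log2 ratio of 8.90 (7.36 to 12.26), and Mcpt8 had 8.20 (6.67 to 11.57). Cpa3, the mast cell carboxypeptidase, had 714 UMIs in the primary granule cells and 0 in the mature neutrophils. Nkg7 had 7.34 (6.33 to 8.90). Ifrd2 and Cenps, a centromere protein, had 368 and 340 UMIs in the primary granule cells and 0 in the mature neutrophils. At 14 dpi, Prss34 and Mcpt8 had 8.33 (7.48 to 9.53) and 8.07 (7.18 to 9.37). These ratios depended on the rule, and with 4 genes in place of 3 Prss34 had 2.78 in sham and 5.82 at 14 dpi, and Mcpt8 3.26 and 6.06. Fcer1a, the alpha chain of the high-affinity IgE receptor, had 267 UMIs against 0. These genes were carried by few cells, with 85.5% of the Mcpt8 and 65.7% of the Cpa3 UMIs of sham in 5 cells, and the Fcer1a UMIs at 14 dpi in 10 of 278 cells with 79.4% in 5. Fkbp11, a folding enzyme of secretory cells, and Skp2, a ubiquitin ligase subunit of the cell cycle, had 234 and 162 UMIs against 0. P2ry12 had 181 UMIs against 0, which the mature gate sets by leaving out every cell with a UMI of it.

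Stfa2l1 and Mmp9 were among the 10 genes with the smallest ratios in both libraries. In sham, Olfm4, a protein of a subset of secondary granules, had 8 UMIs in the primary granule cells and 312 in the mature neutrophils, a log2 ratio of -7.29. Stfa2l1, a stefin protease inhibitor, had -7.25, Retnlg -7.00 and Mmp9 -6.70, the last pair being genes of the mature gate. Scrg1, Asprv1, Nt5e, Ceacam10 and 1700047M11Rik ran from -6.86 to -6.46, and Gm5483 had 0 UMIs against 380. Retnlg and Mmp9 had 2457 and 147 UMIs in the primary granule cells, and the other ratios rest on few UMIs there. Most of these ratios moved with the rule. With 1 UMI in place of 2 for the rule, Olfm4 had -5.42, Nt5e -5.47, Scrg1 -5.59 and Asprv1 -5.79. Without the exclusion by Cd3e and Cd79a, Olfm4 had -4.12. Other alternatives moved ratios further from 0, with Stfa2l1 at -10.1 when the lymphoid filter of the study was added. Asprv1 had -9.61 with 10000 to 50000 UMIs and -9.80 without the cells with microglia markers. At 14 dpi, Stfa2l1 had -8.06 and Fpr1, the receptor for formyl peptides of bacteria, -7.85. Acod1, which makes itaconate in activated myeloid cells, had -7.58, and the chemokine genes Cxcl2 and Cxcl3 -7.18 and -7.10. Upp1, Steap4, AC110211.1 and Mmp9 had -7.79, -7.33, -7.14 and -7.02. These values moved with the rule too, and with 1 UMI for it Acod1 had -6.35, Cxcl2 -5.84, Cxcl3 -5.87, Fpr1 -6.91 and Steap4 -6.55. Cxcl3 had -8.68 with filters of 1000 genes and 5% mitochondrial UMIs, and Steap4 -9.54 with 3 UMIs for the rule.

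The secondary granule cells stood between the other populations for some programmes and beside the primary granule cells for others. Against them, 40.8% of 10091 genes in sham and 37.7% of 10497 genes at 14 dpi were at least 2-fold higher in the primary granule cells, and 8.17% and 5.99% at least 2-fold lower, with medians of 0.69 and 0.70. G2 and M phase genes were near equal, with medians of 0.15 and 0.18 and 1 and 0 of 20 genes at least 2-fold higher. S phase genes were higher in the primary granule cells, with medians of 1.69 and 1.25 and 12 and 11 of 20 genes. Ribosome biogenesis genes differed most evenly, with all 15 at least 2-fold higher in both libraries and medians of 3.01 and 2.72. Npm1 stood at 159 and 207 CPM in the secondary granule cells against 1572 and 1326 CPM in the primary granule cells. Stem and early progenitor genes had medians of 3.31 and 2.87, with 10 and 9 of 11 at least 2-fold higher. Cebpe was higher in the secondary granule cells, at 397 against 198 CPM in sham and 636 against 223 CPM at 14 dpi. The sham values rest on 33 secondary granule cells with 453066 UMIs.

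The libraries differed in the sex of these cells. Sex was called from Xist and the Y-linked genes Ddx3y, Eif2s3y, Kdm5d and Uty, as male where any of the 4 but no Xist was seen and as female where Xist alone was. In the standard sham library 7 primary granule cells were male and 209 female, 3.24% (1.31 to 6.56%) male. At 14 dpi 195 were male and 16 female, 92.4% (88.0 to 95.6%) male. Microglia of the same libraries were mixed, with 39.8% (38.0 to 41.7%) and 46.7% (45.1 to 48.2%) male. Mature neutrophils were 22.8% (15.9 to 31.1%) and 85.6% (81.8 to 89.0%) male, and secondary granule cells 12% (2.55 to 31.2%) and 88.2% (82.0 to 92.9%). Among cells with a call, the share of males in the primary granule cells of sham thus lay below that of the mature neutrophils, with intervals apart. At 14 dpi the intervals overlapped. Neither Xist nor a Y-linked gene was seen in 144 of 277 mature neutrophils of sham and 516 of 934 at 14 dpi. In the primary granule cells, which held more UMIs, this was so for 7 of 235 and 36 of 278. The monocyte-side cells were 4% and 92.2% male and the neutrophil-side cells 1.96% and 96.3%. Cells with early B lymphocyte genes, taken as at least 2 of Vpreb1, Igll1, Dntt and Rag1 at 2 UMIs, were 5.88% (2.40 to 11.7%) male in sham and 92.7% (86.6 to 96.6%) at 14 dpi, with intervals that overlapped those of the primary granule cells. They numbered 127 and 171, against 8 in the ActD sham and 0 in the 3 dpi library. Cells with at least 2 of 5 erythroid genes numbered 38 in sham and 38 at 14 dpi, with 5.56% and 81.2% male, against 4 in each of the other libraries. Why the sexes differed was not tested. Whether cells of marrow entered the preparations was not tested either, so the counts and shares are of cells in the libraries, and their place in the cord is not known.

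**Figure D5:**
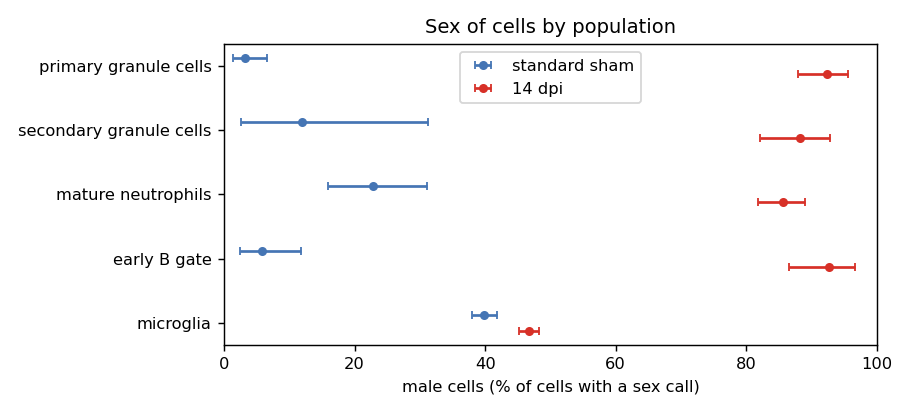
Percent of male cells among cells with a sex call (x axis) for the primary granule cells and comparison populations (y axis) of the standard sham (blue) and 14 dpi (red) libraries, with exact 95% intervals. Primary granule cells sit at 3.24% and 92.4%, microglia at 39.8% and 46.7%.

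Set side by side, the primary granule cells of the libraries differed in immediate early and inflammatory genes, most of which were lower at 14 dpi. Of 11016 genes compared, 4.79% were at least 2-fold higher and 3.95% at least 2-fold lower at 14 dpi than in sham, with a median log2 ratio of 0.06. None of the 20 S phase, 20 G2 and M phase, 15 ribosome biogenesis or 15 folding genes differed 2-fold, with medians of 0.07, 0.20, -0.02 and -0.02. Of the 10 replication histone genes, 3 were at least 2-fold higher and 1 lower at 14 dpi, with a median of 0.85. The 5 genes of the rule were all lower at 14 dpi, by less than 2-fold, from -0.44 for Prtn3 to -0.90 for Mpo. Of 20 immediate early genes, 16 were at least 2-fold lower at 14 dpi, and of 12 inflammatory genes, 10. Jun, an immediate early transcription factor, stood at 1121 CPM in sham and 135 CPM at 14 dpi, a log2 ratio of -3.05 (-3.14 to -2.96), and Ccl4, a chemokine, had -3.31 (-3.49 to -3.15). The same lists were lower in the microglia too, with medians of -5.09 and -3.82 against -1.62 and -2.32 in the primary granule cells, and nearer to 0 in the mature neutrophils, with -0.33 and -0.58. By the text of the study, the sham cells were dissociated without ActD and those at 14 dpi with it, and the parts of ActD and injury in these values were not separated here. Of 15 interferon response genes, 8 were at least 2-fold higher at 14 dpi and 1 lower, with a median of 1.07, and the medians in mature neutrophils and microglia were 1.27 and 2.41. Oasl2 had 1.91 (1.33 to 2.56) and Ifit3 3.48 (2.38 to 5.08), the latter from 6 and 68 UMIs. Vcam1 was lower at 14 dpi, with -2.16 (-2.45 to -1.89), and Hist1h1b, the linker histone H1.5, higher, with 1.31 (1.27 to 1.36).

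The genes with the largest ratios at 14 dpi over sham were mostly known from microglia and macrophages. Apoe, the lipid carrier, stood at 214 CPM in the primary granule cells of sham and 5757 CPM at 14 dpi, a log2 ratio of 4.75, and at 2547 and 77987 CPM in the microglia. In the primary granule cells without microglia markers its log2 ratio was 3.14, and in the mature neutrophils 2.57. Igf1, Apoc1, Spp1, Lpl, Ccl5, Axl and Gpnmb ran from 4.28 to 3.14, and from 2.77 to 0.96 without the cells with microglia markers. Summed over 10 microglia genes, the level was 879.7 CPM in the primary granule cells of sham and 2170 CPM at 14 dpi, with C1qa, a complement subunit, the most abundant at 222 and 731 CPM and none of the 10 at 0. Mature neutrophils held 725 and 1463 CPM of them and microglia 26326 and 28121 CPM. At least 3 microglia markers at 2 UMIs were found in 43 primary granule cells of sham (18.3%) and 84 at 14 dpi (30.2%). The part of microglial RNA in the differences between libraries was not tested.

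The genes with the smallest ratios included 2 that rested on single cells. Of the 294 UMIs of Prg2, the eosinophil major basic protein gene, in the sham cells, 283 came from 1 cell, and of the 1121 UMIs of Pf4, platelet factor 4, 953 came from 1 cell. Gem, Il1a, Thbs1, Atf3, Acod1 and Nr4a1 had log2 ratios from -5.03 to -3.98. Without the cells with microglia markers, these ran from -5.23 for Il1a to -3.04 for Acod1. The same genes were lower at 14 dpi in mature neutrophils, from -4.58 for Il1a to -1.13 for Acod1. In microglia they ran from -6.55 for Gem to -0.89 for Acod1. Of the 47 UMIs of Thbs1 in the primary granule cells at 14 dpi, 35 came from 1 cell. Nr4a1, an immediate early nuclear receptor, had UMIs in 159 of the 235 sham cells and 42 of the 278 cells at 14 dpi. Few cells carried genes of the erythroid, megakaryocyte, eosinophil or early lymphoid lineages. At least 2 genes at 2 UMIs were found in 2 and 1 cells for the erythroid list, 1 and 0 for the megakaryocyte list, 2 and 0 for the eosinophil list, and 0 and 0 for the early lymphoid list. For B cell genes these were 51 and 45 cells, with Ighm the most abundant of the list at 118 and 143 CPM, and for T and NK cell genes 1 and 6. The summed B cell list stood at 161 and 184 CPM, against 116 and 99.6 CPM in the mature neutrophils and 1819 and 538 CPM in the microglia. At least 2 B cell genes at 2 UMIs were found in 11.6% and 8.50% of the microglia, which held fewer UMIs per cell, and in 21.7% and 16.2% of the primary granule cells.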

How the data were processed

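CD45+ cells of mouse spinal cord were sequenced with the 10x 3' method in 4 libraries, 1 per condition. UMI counts for each gene in each barcode were deposited by the authors, made with Cell Ranger on mm10 per the labels (software version 3.0.1 for standard sham and 3 dpi, 3.1.0 for ActD sham and 14 dpi, per the file headers), unnormalized and before the filters of the study, which were applied here. The members of the population, the gene lists and the lineage gates were chosen with earlier results of these data known.

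Counts were summed per population and library and scaled to CPM. Ratios used 0.5 added UMIs and a minimum of 20 UMIs over both populations, and carry exact conditional intervals. Shares carry Clopper-Pearson intervals, and CPM carry Poisson intervals in the tables (all 95%). Where 1 population had 0 UMIs, the UMIs are given without a ratio. Microglia, the background, had at least 2 UMIs of each of at least 3 of 5 markers, among them P2ry12, Cx3cr1 and Tmem119, and no gene of the rule at 2 UMIs. Genes were named as the 10 largest and 10 smallest ratios to mature neutrophils in each library and the 8 largest and 8 smallest between libraries, among genes with at least 100 UMIs and without mitochondrial, ribosomal protein, haemoglobin and sex-linked genes, together with genes of 27 fixed lists. Genes named within gates and ranges, among them Muc13 and Vcam1, were taken from these lists. Doublets were kept. As an alternative, those with the highest Scrublet scores (scanpy 1.11.5) were removed at 0.8% per 1000 cells, which took out 9 of 235 and 24 of 278 cells of the population. The other alternatives were rules of 1 or 3 UMIs or 4 genes, looser and stricter cell filters, no lymphoid exclusion and that of the study, TMM scaling (edgeR 4.0.16 in R 4.3.3), means of cells, other minimum counts, mature gates, thinning depths, cycling calls, range limits and sex calls. Leaving out cells with microglia markers, cells outside 10000 to 50000 UMIs, and other thresholds for the lineage gates and microglia were chosen after seeing the data. Data were simulated by independent Poisson draws from the sums of members and mature neutrophils, with 200 changed genes. The intervals assume the same model, so the simulation checks their calculation and cannot show how they hold for counts spread unevenly over cells. In it, intervals held the true ratio for 96.0% of 10322 genes in sham and 95.6% of 10746 at 14 dpi. Of the simulated 2-fold changes, 77.3% in sham and 87.9% at 14 dpi were recovered, and of the 4-fold changes 94.2% and 97.8%. Python 3.11.15, numpy 2.4.6, scipy 1.17.1, pandas 2.3.3 and matplotlib 3.10.9 were used. Gene positions are from GENCODE M21 and promoters from RefSeq, both GRCm38. Protein sequences were not used here, and not every gene that the naming rule or a gate took is reported here.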

Additional observations from a re-analysis of the deposited data

Results flagged for a closer look

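The same rule also found cells in the libraries that the comparisons did not use. In the ActD sham library 27 of 2203 filtered barcodes met it (1.23%), with a median of 78534 UMIs, and in the 3 dpi library 17 of 9528 (0.178%), with a median of 18353 UMIs. Elane was at 1786 CPM and Mpo at 894 CPM in the 27 cells of the ActD sham library. Of them 10 were cycling, 20 were monocyte-side, 4 neutrophil-side and 1 basophil-side, and 0 were male and 26 female. Elane was at 5363 CPM and Mpo at 4568 CPM in the 17 cells at 3 dpi. Of them 4 were cycling, 7 monocyte-side and 6 neutrophil-side, and 7 were male and 6 female. Their median share of mitochondrial UMIs was 7.88%, against 2.41% in standard sham.

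The ratio of Pf4 in primary granule cells over mature neutrophils had opposite signs, with a log2 ratio of 1.67 in standard sham and -1.60 at 14 dpi. The difference between the libraries was not tested. In standard sham 953 of the 1121 UMIs came from 1 cell (85.0%).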

How the results depend on the processing

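No paired analysis was possible because there was 1 library per condition, and for the same reason no replicate could be left out. Of the values that answer a comparison, 137 moved by less than the counting interval or 1.5 times and 21 by more. The count of primary granule cells was 303 in sham and 401 at 14 dpi with 1 UMI in place of 2, 175 and 186 with 4 genes in place of 3, 192 and 194 without cells with microglia markers, and 178 in sham with 10000 to 50000 UMIs. Cycling was 36.1% in sham with 1 UMI for the rule, 59.9% and 70.4% after thinning to 2000 UMIs, 93.2% and 96.8% without thinning, 71.4% and 76.2% with at least 1 of the 7 genes and 21.4% and 26.4% with at least 3. Males were 87.4% at 14 dpi with 1 UMI for the rule. With TMM scaling the median of all genes was 0.192 and 0.0697, and 34.1% and 29.8% of genes were at least 2-fold higher.

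List medians changed sign for small lists of other lineages, and the cause was not tested. In sham the eosinophil list was -2.37 with 10000 to 50000 UMIs, and with no minimum of UMIs the erythroid list was -0.0962 and the T and NK cell list -2.52. At 14 dpi the eosinophil list was 5.0 with 1 UMI for the rule, the megakaryocyte list -1.42 and the early lymphoid list -0.513 with 4 genes, the erythroid list -0.000475 with no minimum, and the megakaryocyte list -1.60 with a minimum of 100 UMIs. The medians of the microglia and B cell lists also turned negative under TMM scaling in both libraries, that of the microglia list without the cells with microglia markers and at 14 dpi without doublets, and that of the B cell list with no minimum. The early lymphoid list in sham turned negative under TMM scaling and the lymphoid filter of the study, the other primary granule list at 14 dpi under TMM scaling, and the cytokine receptor list in sham positive with 10000 to 50000 UMIs or a minimum of 100. The other list medians kept their sign under every alternative run. Values of gates with few cells, such as the basophil side (14 and 15), rest on little counting.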
